A study of Mus musculus with 6 samples.

Results

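The genes described here carry out the unfolded protein response of the endoplasmic reticulum (ER) and the integrated stress response. They are 38 named genes, taken by their symbols from a table of 55367 gene names, and all 38 were found. They fall into 25 ER folding and ER-associated degradation (ERAD) genes and 13 genes driven by, or acting around, the transcription factor ATF4. Whole liver was sequenced in 3 libraries of Lmln-/- mice (Lmln-KO) and 3 of wild-type mice (WT), all of the C57BL/6J strain. Lmln encodes invadolysin, a metalloprotease. The animals were 46 weeks old, except that Lmln-KO replicate 3 was 39 weeks old, and no treatment was named. The sources used here give neither the way the allele was made nor the animals' sex.

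As background, proteins folded wrongly in the ER are sensed by IRE1 (gene Ern1), ATF6 and PERK (gene Eif2ak3). IRE1 splices the Xbp1 mRNA, so that an active XBP1 factor is made, and ATF6 is cut to release a transcription factor. Both raise chaperones, disulfide isomerases and ERAD genes. PERK belongs to a set of kinases that phosphorylate the translation factor eIF2alpha, which slows translation in general while ATF4 is translated more. ATF4 then drives amino acid synthesis and stress regulators. Hepatocytes secrete large amounts of plasma protein and hold much ER. Counts per gene show transcript levels only: they show neither Xbp1 splicing nor the phosphorylation of eIF2alpha nor ATF4 protein.

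The promoters of these genes show which carry the binding motifs of the ER stress factors and which that of ATF4. RefSeq promoter windows (GRCm38.p6) were found for 33 of the 38 genes. Atf6, Derl1, Hyou1, Manf and Ppp1r15b had none in the table used. In the 250 bases before each annotated start, 3 motifs were searched on both strands: the ER stress element ERSE (CCAAT, then 9 bases of any kind, then CCACG), ERSE-II (ATTGG, 1 base of any kind, CCACG) and the core of the C/EBP-ATF element bound by ATF4 (TGATGNAA). ERSE was present in 8 of 21 windows of the ER genes and in 0.113% of all 32851 windows of that length. Its 8 genes were Calr, Canx, Creld2, Dnajc3, Hsp90b1, Hspa5, Pdia6 and Syvn1. None of the 14 windows of the ATF4-driven genes held it. ERSE-II was present in the Herpud1 window alone among the 35 windows of these genes, and in 0.0304% of all windows. The ATF4 core was present in 3 of the 35, those of Asns, Chac1 and Herpud1, and in 3.45% of all windows. A match describes letters, not binding, and where no match was found only the letters of this window are described.

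Shown here, 5′ to 3′ along the gene's strand, are 4 chaperone promoters with ERSE, the Herpud1 promoter with 2 motif types, and the Chac1 promoter with the ATF4 core. Capitals mark the motifs, in either orientation. Each stretch ends before the first base of that gene's own model in the deposited table, and models of other genes were not checked.
Hsp90b1 (chr10:86705510-86705694, minus strand): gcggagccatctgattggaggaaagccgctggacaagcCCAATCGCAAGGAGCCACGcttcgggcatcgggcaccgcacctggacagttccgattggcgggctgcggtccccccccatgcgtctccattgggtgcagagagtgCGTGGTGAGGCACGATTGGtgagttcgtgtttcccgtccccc
Creld2 (chr15:88819396-88819645, plus strand): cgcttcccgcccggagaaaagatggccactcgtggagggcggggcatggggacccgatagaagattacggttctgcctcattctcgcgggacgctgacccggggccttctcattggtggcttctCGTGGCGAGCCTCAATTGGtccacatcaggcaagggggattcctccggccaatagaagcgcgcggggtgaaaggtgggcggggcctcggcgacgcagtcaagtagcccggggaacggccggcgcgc
Calr (chr8:84846935-84847181, minus strand): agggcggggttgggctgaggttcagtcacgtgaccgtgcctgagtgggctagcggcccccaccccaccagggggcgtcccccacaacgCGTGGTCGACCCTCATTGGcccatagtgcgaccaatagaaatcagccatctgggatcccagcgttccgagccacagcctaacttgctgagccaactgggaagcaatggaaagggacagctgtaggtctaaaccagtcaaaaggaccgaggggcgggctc
Pdia6 (chr12:17266339-17266544, plus strand): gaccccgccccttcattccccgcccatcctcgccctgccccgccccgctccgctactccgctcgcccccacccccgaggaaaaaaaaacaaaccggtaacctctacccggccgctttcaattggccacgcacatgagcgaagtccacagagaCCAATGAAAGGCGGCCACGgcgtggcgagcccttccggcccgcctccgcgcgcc
Herpud1 (chr8:94386179-94386428, plus strand): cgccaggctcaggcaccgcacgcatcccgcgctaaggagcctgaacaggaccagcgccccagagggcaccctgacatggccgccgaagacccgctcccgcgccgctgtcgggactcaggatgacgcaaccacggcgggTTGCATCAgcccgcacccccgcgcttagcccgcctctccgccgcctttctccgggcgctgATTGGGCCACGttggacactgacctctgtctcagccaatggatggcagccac
Chac1 (chr2:119350992-119351228, plus strand): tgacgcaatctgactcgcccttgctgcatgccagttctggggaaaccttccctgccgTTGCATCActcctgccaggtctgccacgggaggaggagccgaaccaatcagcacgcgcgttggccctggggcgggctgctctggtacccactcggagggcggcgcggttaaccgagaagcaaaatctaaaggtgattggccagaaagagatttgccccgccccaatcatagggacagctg
Hsp90b1 had 2 ERSE motifs in opposite orientations, beginning 212 and 107 bases before the RefSeq start. Herpud1 had an ATF4 core 112 bases and an ERSE-II 52 bases before its start. No motif overlapped another in these 6 stretches.

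The libraries held 17388360 to 22494696 counted reads, and the 38 genes took 0.615% to 1.05% of them. The lowest share was in WT replicate 3 and the highest in Lmln-KO replicate 1. Where 3 values of a group are given in a row, they are those of replicates 1, 2 and 3. Lmln itself had 4, 12 and 2 counts in the Lmln-KO libraries, against 79, 80 and 39 in the WT libraries, lower in every Lmln-KO library. Of the hepatocyte markers, all 7 found in the table were abundant, with a summed level of 85813 to 106384 CPM (counts scaled to the library total after TMM normalization). Transcripts of the sex chromosomes split the libraries another way. Lmln-KO replicates 1 and 2 and WT replicate 1 carried Y-linked transcripts (216 to 235 CPM) and almost no Xist, while Lmln-KO replicate 3 and WT replicates 2 and 3 carried Xist (1878 to 1947 CPM) and almost no Y-linked ones. The groups were therefore unbalanced, with 2 and 1 libraries of the first kind. The main fold changes are given by genotype alone and with a term for this difference. In whole liver, fewer cells of a type and less RNA per cell cannot be told apart.

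Per kilobase of exon, the ER genes were the more abundant of the 2 sets. P4hb, the beta subunit of prolyl hydroxylase and itself a disulfide isomerase, had the highest mean level over the 6 libraries at 386 CPM per kilobase. The calcium-binding lectin chaperone Calr followed at 263, then the HSP90 of the ER, Hsp90b1, at 191, and the HSP70 of the ER, Hspa5 (BiP), at 169 CPM per kilobase. Ranges over the libraries overlapped between each of these and the next. The sensors were lower: Ern1 measured 18.8, Atf6 14.1 and Eif2ak3 3.21 CPM per kilobase. Among the ATF4-driven genes Atf5, a related transcription factor, was highest at 113 CPM per kilobase. Atf4 measured 29.9 and Ddit3 (CHOP), a stress transcription factor, 4.43 CPM per kilobase. The serine synthesis genes Psat1 and Phgdh were near the floor, at 0.122 and 0.0789 CPM per kilobase, and Phgdh had 1 to 7 counts per library. It was the 1 gene of the 38 that did not pass the filter on low counts, which left 37 for testing.

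**Figure D1:**
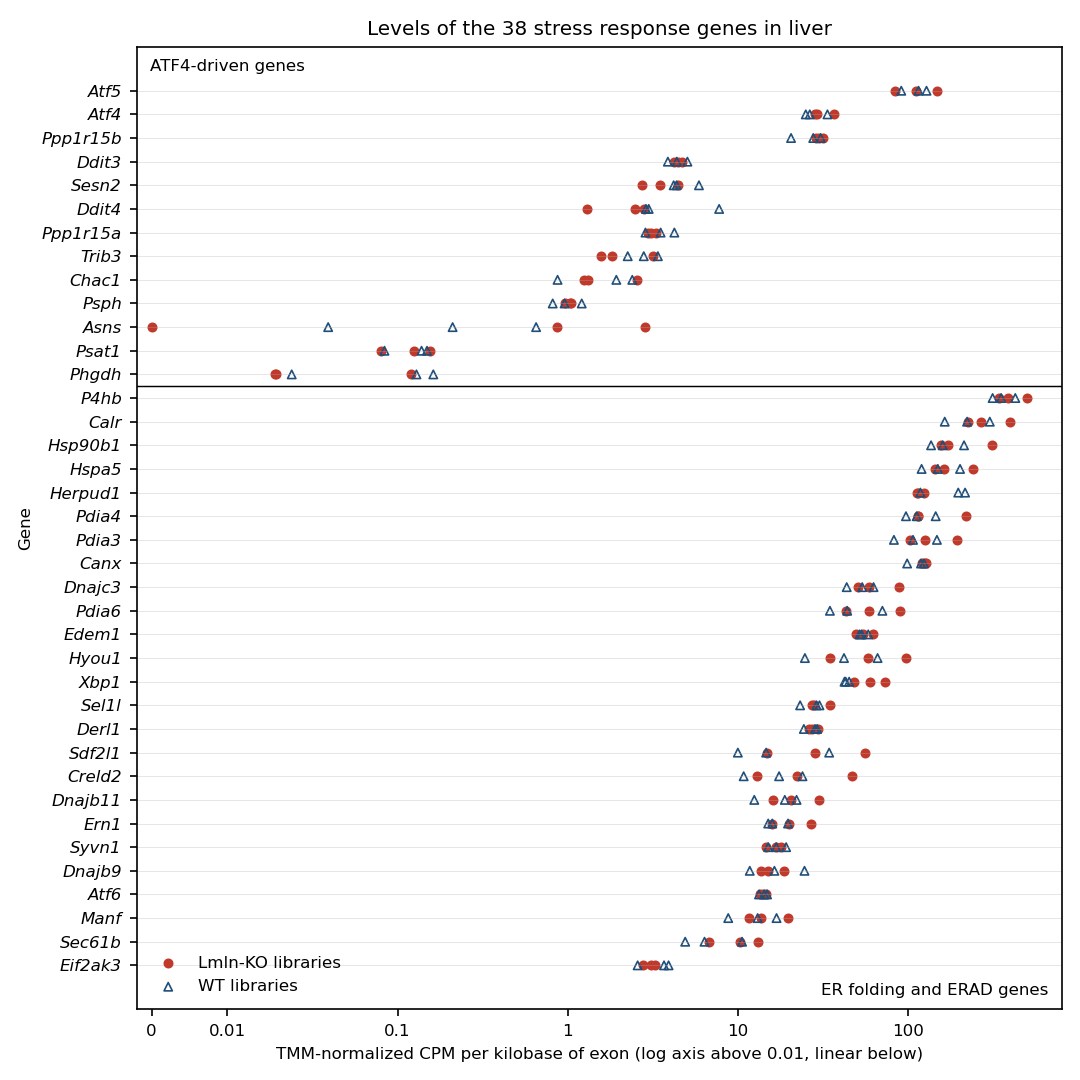
Level of each of the 38 genes in each library, in TMM-normalized CPM per kilobase of exon, on an axis that is logarithmic above 0.01 and linear below; filled circles are Lmln-KO libraries and open triangles WT libraries. The ER genes lie mostly above the ATF4-driven genes, from P4hb at 386 down to Eif2ak3 at 3.21 on average, and the 2 groups of libraries intermingle for most genes.

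Compared by genotype, no gene of either set passed. edgeR's quasi-likelihood test called 0 of the 37 tested genes at an adjusted p of 0.05, against 0 of all 18703 tested genes (0%). DESeq2 also called 0 of these genes (Psat1 had no adjusted p), against 24 of all genes (0.128%), and limma-voom called 0, against 0. With the sex-chromosome term neither tool called any of the 37, against 1 of all genes in edgeR (0.00535%) and 31 in DESeq2 (0.166%). At an unadjusted p under 0.05 edgeR gave 2 of the 37, or 5.41%, close to the 4.66% over all tested genes. They were Xbp1, higher in Lmln-KO as were 1.52% of all genes, and Herpud1, lower as were 3.14%. With the term they were the same 2 genes, and 4.34% of all genes. The groups did not overlap for 2 of the 37, where 10.3% of all tested genes showed no overlap. They were Xbp1, higher in all Lmln-KO libraries as were 4.61% of all genes, and Ddit4, lower as were 5.73%. Of the 25 ER genes 20 had a positive log2 fold change (Lmln-KO minus WT), and their median was 0.30. The 12 tested ATF4-driven genes were split 6 and 6 around a median of -0.011. The median over all tested genes was -0.0038. With the sex-chromosome term the ER median was 0.11 and the ATF4 median -0.014. Leaving out Lmln-KO replicate 1 gave an ER median of 0.014, WT replicate 3 gave 0.11 and Lmln-KO replicate 3 gave 0.47. The ATF4 median, unlike the ER median, changed sign between such fits. It was -0.13 when Lmln-KO replicate 2 was left out. It was 0.074 when WT replicate 3 was left out, with 8 of 12 genes then positive. Only 4 of 12 were positive when WT replicate 1 was left out.

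**Figure D2:**
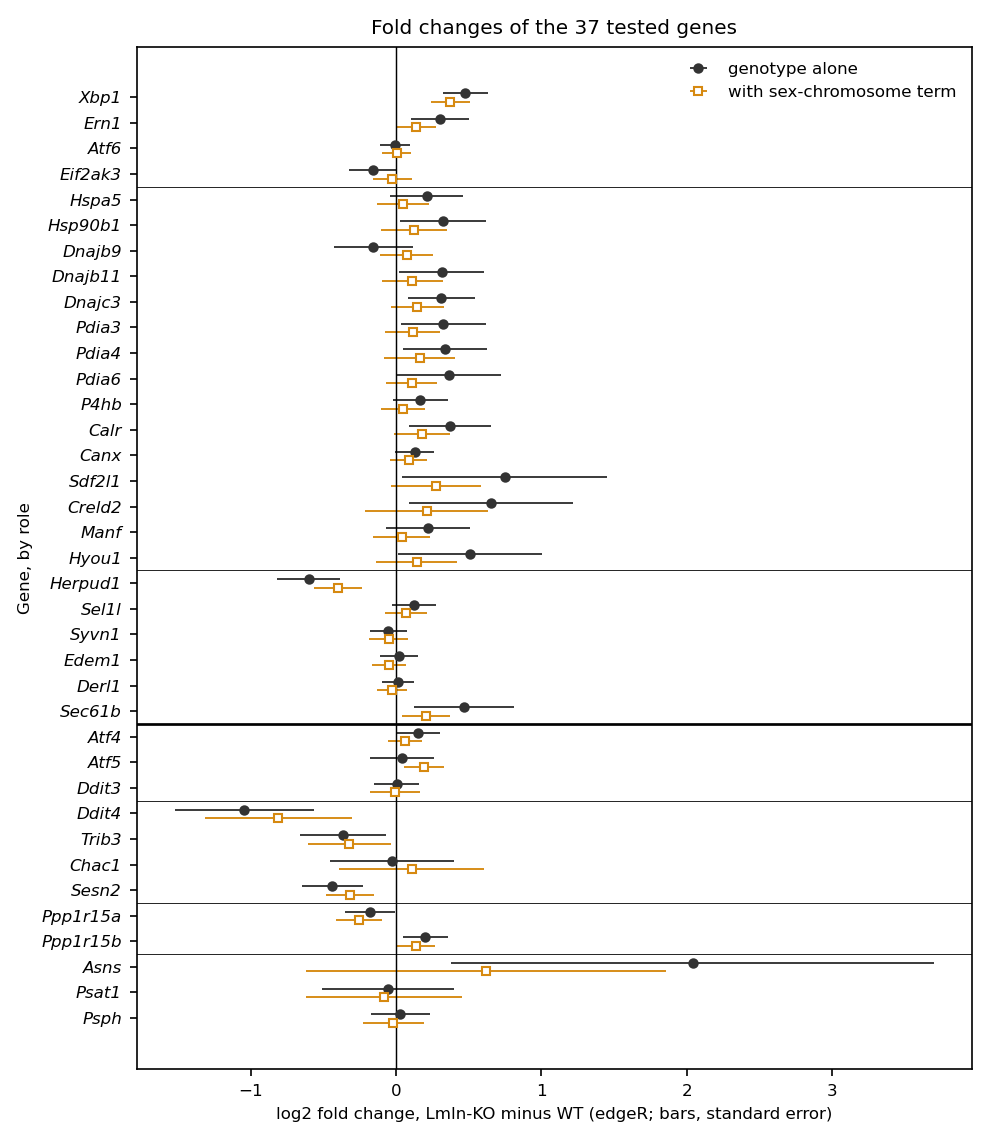
Log2 fold change (Lmln-KO minus WT) of the 37 tested genes, by role, with standard error bars, from edgeR by genotype alone (filled circles) and with the sex-chromosome term (open squares). Of the 15 chaperone and folding genes 14 lie to the right of 0 by genotype alone and all 15 lie closer to 0 with the term, with Dnajb9 on the other side of it; Asns has the widest bars.

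Xbp1, whose product is the transcription factor that IRE1 activates, showed a clearer separation than the sensor genes. Xbp1 (chr11:5520659-5525893) measured 194, 237 and 157 CPM in the Lmln-KO libraries, against 146, 139 and 137 CPM in the WT libraries. All 3 Lmln-KO libraries were above all 3 WT libraries, and the Lmln-KO libraries spread more widely. The Lmln-KO mean was 196 ± 40.5 CPM and the WT mean 141 ± 4.60 CPM (SD, n = 3), for a log2 fold change of 0.48 (SE 0.156), with an unadjusted p of 0.0155 and an edgeR adjusted p of 0.933. With the sex-chromosome term it was 0.37 (SE 0.134, edgeR adjusted p 0.987). Over the 14 alternatives the log2 fold change ran from 0.32 (Lmln-KO replicate 2 left out) to 0.62 (Lmln-KO replicate 3 left out), and the adjusted p from 0.549 to 0.9999.

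The sensors themselves gave no such separation. Ern1, which encodes IRE1, measured 162, 219 and 129 CPM in the Lmln-KO libraries, against 161, 130 and 123 CPM in the WT libraries, with a log2 fold change of 0.30 (SE 0.202), or 0.14 with the sex-chromosome term. Its value was 0.080 when Lmln-KO replicate 2 was left out and 0.47 when Lmln-KO replicate 3 was. Its 3 highest libraries were those with Y-linked transcripts, of both genotypes. Atf6 was the steadiest of the 37 genes, between 123 and 137 CPM in every library, with a log2 fold change of -0.0076 (SE 0.101). Eif2ak3, which encodes PERK, measured 16.8, 18.6 and 19.5 CPM in the Lmln-KO libraries, against 15.5, 22.1 and 23.6 CPM in the WT libraries, a log2 fold change of -0.16 (SE 0.167). It was -0.32 when WT replicate 1 was left out, -0.042 when WT replicate 3 was, and between these for the other 4 libraries. The edgeR adjusted p of these 3 genes was 0.933 to 0.993.

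The chaperones and folding enzymes shared their high and low libraries, which cut across the genotypes. Hspa5 (chr2:34771970-34777547) measured 1010, 685 and 610 CPM in the Lmln-KO libraries, against 852, 631 and 506 CPM in the WT libraries. The groups overlapped, with means of 768 ± 213 and 663 ± 175 CPM (SD, n = 3) and a log2 fold change of 0.21 (SE 0.251, edgeR adjusted p 0.936). With the sex-chromosome term the log2 fold change was 0.046 (SE 0.179). By genotype alone it was -0.030 when Lmln-KO replicate 1 was left out, 0.052 for WT replicate 3, 0.36 for Lmln-KO replicate 3 and 0.44 for WT replicate 1. Of the 15 genes in this set 14 had their highest level in Lmln-KO replicate 1 and 14 their lowest in WT replicate 3. Over all tested genes 15.6% were highest in Lmln-KO replicate 1 and 23.4% lowest in WT replicate 3. The exception in both was Dnajb9.

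Within this set the spread between libraries was widest for Sdf2l1, Creld2 and Hyou1. Sdf2l1, a component of the BiP complex, measured 61.7, 31.5 and 16.3 CPM in the Lmln-KO libraries, against 38.01, 16.2 and 11.1 CPM in the WT libraries, a 5.58-fold range. Creld2, an isomerase-like ER protein, measured 64.0, 30.3 and 17.7 against 32.7, 23.8 and 14.7 CPM, a 4.34-fold range. Hyou1, a large HSP70-type chaperone of the ER, measured 697, 417 and 252 against 477, 303 and 179 CPM, a 3.90-fold range. In all 3 genes Lmln-KO replicate 1 was highest and WT replicate 1 second, so that each genotype held both high and low libraries. Their log2 fold changes were 0.75 (SE 0.704), 0.65 (SE 0.565) and 0.51 (SE 0.496), each with a standard error close to its size. With the sex-chromosome term they were 0.27, 0.21 and 0.14.

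The remaining folding genes apart from Dnajb9 had the same highest and lowest library at a smaller range. Hsp90b1 measured 1250, 689 and 627 CPM in the Lmln-KO libraries, against 857, 643 and 549 CPM in the WT libraries. Calr measured 1144, 767 and 649 against 867, 638 and 472 CPM, and may share reads with its pseudogene Calr-ps (1356 counts over the 6 libraries). The disulfide isomerases Pdia3, Pdia4 and Pdia6 ranged 2.36-fold, 2.26-fold and 2.59-fold over the 6 libraries, and the HSP40-type cochaperones Dnajb11 and Dnajc3 2.40-fold and 2.04-fold. Manf, a secreted ER stress protein, ranged 2.24-fold. P4hb ranged 1.59-fold and the membrane lectin chaperone Canx 1.28-fold, the smallest ranges of the set.

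Across these 15 genes the levels followed the sex-chromosome transcripts. In 14 of 15 the 3 libraries with Y-linked transcripts were all above the 3 with Xist, whereas 13.3% of all tested genes showed that order. Dnajb9 showed the opposite order, which 13% of all tested genes showed. This split of the libraries was read from the counts and is not a group of the study, so it carries no test. With a term for it, all 15 log2 fold changes by genotype were positive, with a median of 0.11, against 0.32 without it. Taken inside the Y-linked set the median difference was 0.11, and inside the Xist set it was 0.11. In each, 13 of 15 genes were positive. By median deviation from each gene's own mean log2 CPM, the libraries of neither set were ordered by genotype. In the Y-linked set the medians were 0.65 in Lmln-KO replicate 1, 0.25 in WT replicate 1 and 0.041 in Lmln-KO replicate 2. In the Xist set they were -0.19 in WT replicate 2, -0.22 in Lmln-KO replicate 3 and -0.56 in WT replicate 3. Each of the Y-linked and Xist sets holds 1 library of a genotype. In the Xist set the 1 Lmln-KO library came from the 39-week-old animal, so genotype and age cannot be told apart there. Without Lmln-KO replicate 1, 10 of 15 were positive in the fit by genotype alone, with a median of 0.025. Leaving out WT replicate 3 gave a median of 0.16, leaving out Lmln-KO replicate 3 gave 0.51, and leaving out WT replicate 1 also gave 0.51.

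**Figure D3:**
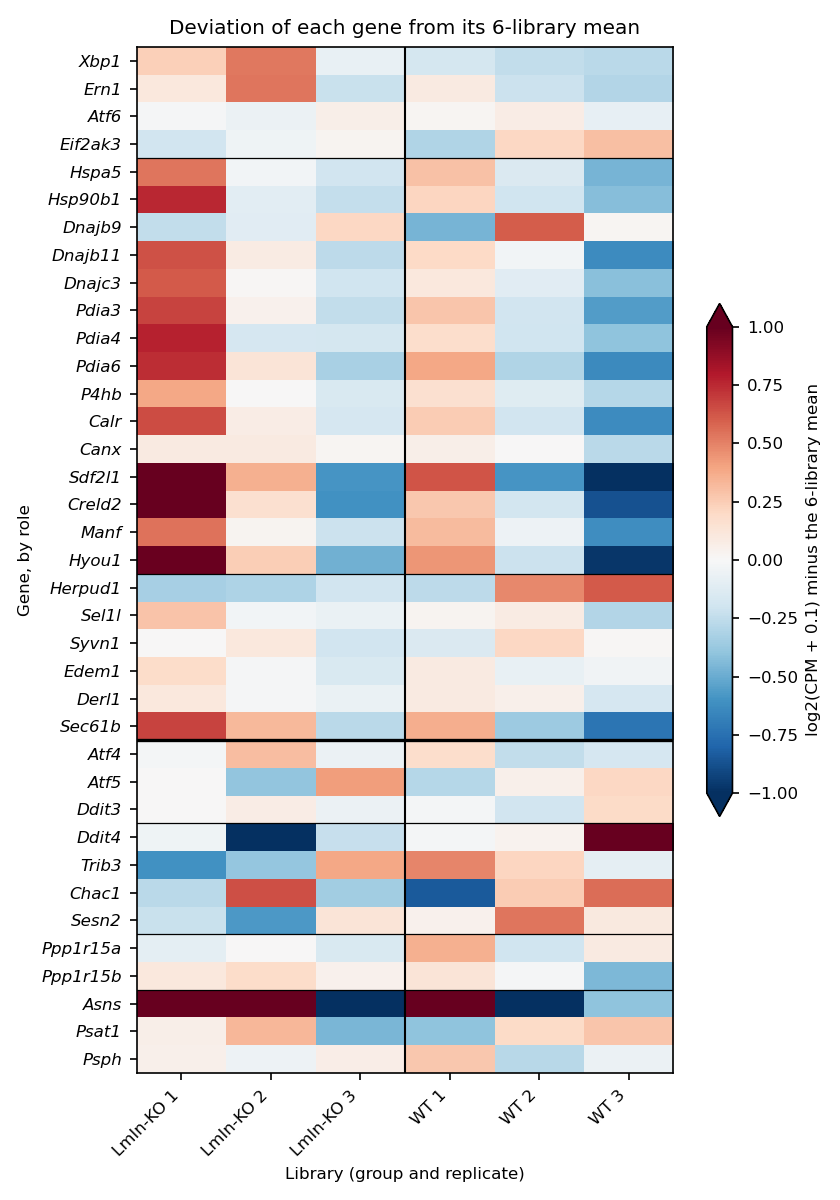
Deviation of each tested gene from its own mean over the 6 libraries, in log2(CPM + 0.1), with 1 column per library and rows ordered by role; red is above and blue below the mean, colours stop at 1 in either direction, and the thick line parts ER genes from ATF4-driven genes. The chaperone rows share a red column for Lmln-KO replicate 1 and a blue column for WT replicate 3, with Dnajb9 and, in the next set, Herpud1 running the other way; the ATF4-driven rows share no column.

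Markers of other cell types were read beside this pattern. Of 7 exocrine pancreas markers Cpa1, Pnlip and Amy2a5 had 0 counts in every library, and Prss2, Ctrb1 and Cela2a stayed below 1 CPM. The seventh, Cela1, measured 11.96, 20.3 and 5.03 CPM in the Lmln-KO libraries, against 24.9, 3.85 and 4.15 CPM in the WT libraries, and was higher in the 3 with Y-linked transcripts. Its part in the pattern was not tested. The summed level of 11 B and plasma cell markers, 8 of them tested, was 23.4 to 44.7 CPM in Lmln-KO and 45.02, 244 and 414 CPM in the WT libraries, and Tnfrsf17 was at 0 throughout. WT replicates 2 and 3, where these markers were highest, were low in the chaperones. Lmln-KO replicate 3 was also low in the chaperones, below WT replicate 2 in mean deviation (-0.24 against -0.13), but had only 33.9 CPM of these markers. Alb, the gene of serum albumin, was lowest in Lmln-KO replicate 1 (45714 CPM) and highest in WT replicate 3 (74329 CPM), the reverse of the chaperones. Of the 7 hepatocyte markers, Alb among them, 5 were above their 6-library mean log2 CPM in Lmln-KO replicate 1 and 2 below. In WT replicate 3, 2 were above and 5 below, the direction of most chaperones. The summed level of 7 stellate and fibroblast markers was 353, 357 and 489 CPM in the Lmln-KO libraries, against 436, 498 and 517 CPM in the WT libraries. The 3 libraries with Y-linked transcripts were thus lowest, and 4 of the 7 showed that order singly, against 13% of all tested genes. Of 5 cholangiocyte markers the sum was highest in Lmln-KO replicate 1 (49.9 CPM) and lowest in WT replicate 3 (24.5 CPM), as for the chaperones. Unlike the chaperones, Lmln-KO replicate 2 (31.4 CPM) was below Lmln-KO replicate 3 (34.8 CPM) and WT replicate 2 (31.8 CPM). Only Sox9, 1 of the 5, had all libraries with Y-linked transcripts above the others. All 8 Kupffer and macrophage markers had negative log2 fold changes, with sums of 210 to 305 CPM. Of the 8, 2 had an unadjusted p under 0.05 in edgeR, as did 3.14% of all tested genes in that direction. Sums were 326 to 416 CPM for 6 endothelial markers and 0.61 to 1.83 CPM for 4 neutrophil markers. The part of these markers, of Alb or of depth in the chaperone pattern was not tested.

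Dnajb9, Herpud1 and, above, Eif2ak3 were the ER genes whose 3 libraries with Y-linked transcripts were all below the 3 with Xist. Dnajb9 (ERdj4), a cochaperone that is induced by XBP1, measured 34.8, 38.02 and 47.6 CPM in the Lmln-KO libraries, against 29.9, 62.6 and 41.7 CPM in the WT libraries. It was lowest in WT replicate 1, where most chaperones were second highest. Its log2 fold change was -0.16 (SE 0.273), or 0.072 with the sex-chromosome term.

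Herpud1 (chr8:94386438-94395377), a membrane protein that assembles the ERAD complex, measured 262, 266 and 289 CPM in the Lmln-KO libraries, against 275, 459 and 503 CPM in the WT libraries. The Lmln-KO libraries lay close together, WT replicate 1 lay among them, and WT replicates 2 and 3 lay well above. The means were 272 ± 14.8 and 412 ± 121 CPM (SD, n = 3). The log2 fold change was -0.60 (SE 0.216), with an unadjusted p of 0.024 and an edgeR adjusted p of 0.933. With the sex-chromosome term it was -0.40 (SE 0.165, edgeR adjusted p 0.987). Inside the Y-linked set the difference was -0.060 and inside the Xist set -0.73, and whether these differ was not tested. Inside the Xist set the only Lmln-KO library was the 39-week-old one, so genotype and age cannot be told apart. WT replicates 2 and 3 were also the libraries high in B and plasma cell markers (244 and 414 CPM in sum). All 8 tested B and plasma cell markers were lower in Lmln-KO at an unadjusted edgeR p under 0.05, as were 3.14% of all tested genes. None passed after adjustment, and with the sex-chromosome term 3 of the 8 had an unadjusted p under 0.05. Their median difference was -0.45 inside the Y-linked set and -2.30 inside the Xist set, the latter with the same limit of age. The part of these markers in the Herpud1 difference was not tested. Herpud1 is the gene above whose promoter holds both an ERSE-II and an ATF4 core.

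The other ERAD and translocon genes had small differences between the genotypes, apart from Sec61b. Sel1l and Syvn1, the scaffold and the ubiquitin ligase of the main ERAD complex, differed by 0.13 (SE 0.151) and -0.052 (SE 0.128) on the log2 scale. Edem1, which directs misfolded glycoproteins to ERAD, and Derl1, a channel component, differed by 0.021 (SE 0.131) and 0.014 (SE 0.110). Sec61b, the small beta subunit of the translocon, followed the chaperones, with 16.7, 13.0 and 8.61 CPM in the Lmln-KO libraries, against 13.4, 8.08 and 6.22 CPM in the WT libraries, a log2 fold change of 0.47 (SE 0.343). Its 108 to 348 counts per library make it the least covered ER gene.

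**Figure D4:**
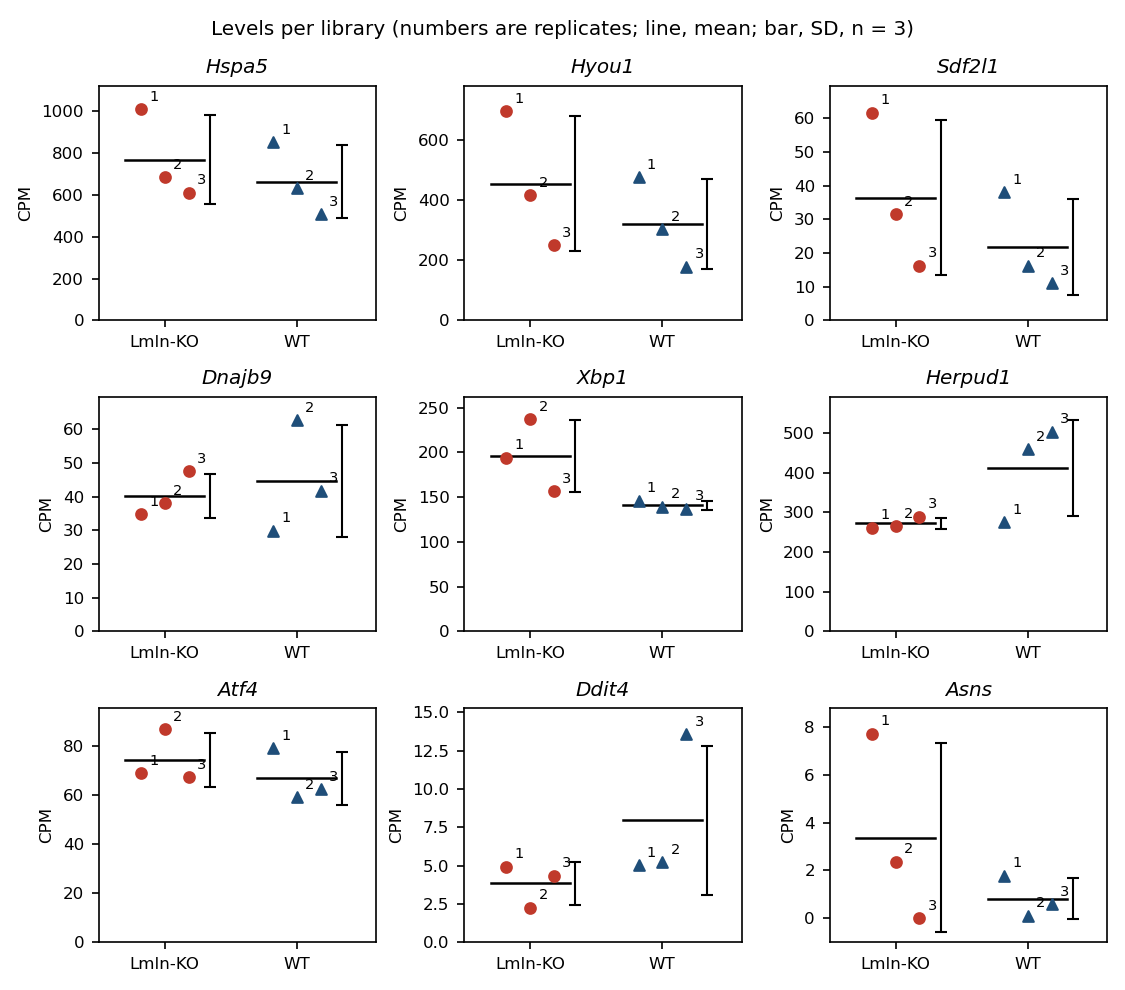
CPM of 9 genes in each library, with Lmln-KO as circles and WT as triangles, replicate numbers beside the points, a line at the mean and a bar of 1 SD (n = 3). Hspa5, Hyou1 and Sdf2l1 overlap widely between the groups, Xbp1 separates them (157 to 237 against 137 to 146 CPM), Herpud1 is high in WT replicates 2 and 3 (459 and 503 CPM), and Ddit4 and Asns are each stretched by 1 library (13.6 CPM in WT replicate 3 and 7.73 CPM in Lmln-KO replicate 1).

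Atf4 and its partner factors had log2 fold changes near 0. Atf4 measured 68.9, 86.7 and 67.1 CPM in the Lmln-KO libraries, against 79.0, 58.9 and 62.2 CPM in the WT libraries, a log2 fold change of 0.15 (SE 0.152, edgeR adjusted p 0.933). Its value was 0.027 when Lmln-KO replicate 2 was left out, 0.071 for WT replicate 2 and 0.295 for WT replicate 1. Atf5 measured 222, 168 and 295 against 181, 229 and 255 CPM, a log2 fold change of 0.041 (SE 0.220). Ddit3 stayed between 6.63 and 8.64 CPM, on 124 to 170 counts per library, with means of 7.61 ± 0.368 and 7.58 ± 1.01 CPM (SD, n = 3) and a log2 fold change of 0.0045 (SE 0.157). For Atf4 and Ddit3 the groups overlapped throughout, and the sign of the Ddit3 value changed with scaling. An exon of Mars1 overlaps 68 bases of Ddit3, so the Ddit3 counts are uncertain.

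The 4 stress regulators downstream of ATF4 had negative log2 fold changes, and none passed. Their median was -0.40. With 1 library left out it ran from -0.68 (Lmln-KO replicate 3) to -0.29 (Lmln-KO replicate 1), with 1 of the 4 positive in both of these fits. With the sex-chromosome term it was -0.32, and 1 of the 4 was positive. Ddit4 (chr10:59949669-59951834), an inhibitor of mTORC1, measured 4.95, 2.27 and 4.35 CPM in the Lmln-KO libraries, against 5.05, 5.24 and 13.6 CPM in the WT libraries. The groups did not overlap, but Lmln-KO replicate 1 and WT replicate 1 differed by 103 against 85 counts in libraries of unequal depth. Its log2 fold change was -1.04 (SE 0.479, edgeR adjusted p 0.933), and -0.42 (SE 0.336) without WT replicate 3. Sesn2, which restrains mTORC1 when leucine is short, measured 12.1, 9.45 and 15.4 against 14.5, 20.5 and 15.1 CPM, a log2 fold change of -0.44 (SE 0.210). Trib3, a pseudokinase that restrains ATF4, measured 3.31, 3.87 and 6.69 against 7.19, 5.94 and 4.78 CPM, or -0.36 (SE 0.294). Chac1, a glutathione-degrading enzyme, differed by -0.026 (SE 0.425) on 24 to 88 counts per library.

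Of the 2 regulatory subunits that return eIF2alpha to its unphosphorylated form, the inducible one, Ppp1r15a (GADD34), differed by -0.18 (SE 0.169) on the log2 scale and the constitutive one, Ppp1r15b (CReP), by 0.20 (SE 0.156). Ppp1r15a measured 8.70 to 9.73 CPM in the Lmln-KO libraries and 8.40 to 12.4 CPM in the WT libraries. Ppp1r15b measured 161 to 178 CPM in the former and 115 to 171 CPM in the latter.

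Asparagine synthetase, Asns (chr6:7675169-7693254), was the most variable of the 37 genes. It had 161, 50 and 0 counts in the Lmln-KO libraries, against 30, 2 and 10 in the WT libraries. The 0 allows up to 0.128 CPM (3 counts in that library, counting error only). In CPM it measured 7.73, 2.36 and 0 in Lmln-KO and 1.78, 0.107 and 0.576 in WT. The 3 libraries with Y-linked transcripts were the highest, and Lmln-KO alone covered the whole range. Its fitted log2 fold change of 2.04 (SE 1.66, edgeR adjusted p 0.933) was 0.62 with the sex-chromosome term and 0.53 without Lmln-KO replicate 1, and 0.37 in limma-voom. It was 3.30 without WT replicate 1, and DESeq2 with the sex-chromosome term turned it to -1.28. Psph, the last enzyme of serine synthesis, measured 4.16 to 4.52 CPM in the Lmln-KO libraries and 3.53 to 5.23 CPM in the WT libraries. Its counts are uncertain, since 452 of its bases overlap Cct6a. Psat1, the transaminase before it, had 6 to 14 counts per library and was too shallow to show a moderate change.

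Further genes of the same pathways were read from lists outside the 38. Of 68 tested ER genes (other sensors, folding and glycosylation enzymes, ERAD, translocon and ER exit) 54 had a positive log2 fold change (median 0.12), or 43 with the sex-chromosome term (median 0.043). Without Lmln-KO replicate 1 it was 42 of 68 (median 0.030). Leaving out WT replicate 3 gave 0.069, Lmln-KO replicate 3 gave 0.19 and WT replicate 1 gave 0.20 as the median. edgeR called 0 of them, none had an unadjusted p under 0.05, and neither DESeq2 nor its fit with the term called any. In 37 of 68 the 3 libraries with Y-linked transcripts were all above the others, against 13.3% of all tested genes. Among those 37 was Derl3, a derlin of secretory cells, named after its values were seen, with 22.4, 3.07 and 2.05 CPM in the Lmln-KO libraries, against 9.09, 1.87 and 1.497 CPM in the WT libraries. Mbtps1, the protease that cuts ATF6, measured 89.0 to 91.8 CPM in the Lmln-KO libraries and 82.2 to 83.3 CPM in the WT libraries, with no overlap (4.61% of all tested genes were likewise higher), a log2 fold change of 0.12 (SE 0.0883).

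Among 21 tested ATF4-responsive genes outside the 38, 17 lay below 0 in log2 fold change (median -0.25), or 15 with the sex-chromosome term (median -0.18). Leaving out Lmln-KO replicate 2 gave a median of -0.11, and leaving out WT replicate 3 gave -0.13. edgeR and DESeq2 called 0, and 3 of 21 (14.3%) had an unadjusted p under 0.05 in edgeR, all lower in Lmln-KO, as were 3.14% of all tested genes. Slc38a2, the neutral amino acid transporter SNAT2, measured 219, 263 and 268 CPM in the Lmln-KO libraries, against 352, 338 and 495 CPM in the WT libraries. The groups did not overlap, as for 5.73% of all tested genes in that direction, and the log2 fold change was -0.66 (SE 0.177), or -0.59 with the term, with an edgeR adjusted p of 0.933 and 0.987. Jdp2, an AP-1 repressor, and Pycr1, an enzyme of proline synthesis, differed by -1.33 (SE 0.477) and -0.74 (SE 0.317) on the log2 scale, on 12 to 72 and 14 to 24 counts per library.

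The cytosolic aminoacyl-tRNA synthetases, several of which ATF4 induces, lay on the other side of 0, and none passed. All 12 had a positive log2 fold change by genotype alone, with a median of 0.16 and none at an unadjusted p under 0.05, and 9 were positive with the sex-chromosome term (median 0.10). Under upper-quartile scaling 11 of the 12 were positive. Leaving out WT replicate 2 left 9 of 12 positive (median 0.13), WT replicate 3 left 10 (median 0.10) and WT replicate 1 left 11 (median 0.24). In 8 of 12 the 3 libraries with Y-linked transcripts were all above the 3 with Xist, against 13.3% of all tested genes. Aars, the alanyl synthetase, measured 283, 265 and 227 CPM in the Lmln-KO libraries, against 258, 208 and 138 CPM in the WT libraries.

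Of 12 genes for the other eIF2 kinases and the subunits of eIF2 and its exchange factor eIF2B, Eif2b4 alone (8.33%) had an unadjusted p under 0.05, against 4.66% of all tested genes. Eif2b4, a regulatory subunit of eIF2B, measured 24.3, 24.4 and 24.6 CPM in the Lmln-KO libraries, against 20.9, 20.8 and 17.0 CPM in the WT libraries. All Lmln-KO libraries were above all WT libraries, as for 4.61% of all tested genes, and the log2 fold change was 0.32 (SE 0.113), or 0.30 with the sex-chromosome term, with an edgeR adjusted p of 0.933 and 0.987.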

How the data were processed

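Whole-liver total RNA was depleted of ribosomal RNA and sequenced in paired ends, per the labels' protocols. The deposited counts are raw whole-number reads per gene name, which the authors made with featureCounts 2.0.1 per the file headers, using exons of GRCm38 as annotated by Ensembl (release 102), beside each gene's exon length. The header gives no paired-end, strand or multi-mapping option, so overlapping antisense genes cannot be told apart by strand. Mars1 overlaps 68 bases of Ddit3, Cct6a 452 bases of Psph and Dcaf1 146 bases of Manf. The submitters' processing notes also name Subread 2.0.2 and edgeR 3.36.0. For the aligner, the sources used here name no tool.

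edgeR 4.0.16 in R 4.3.3 was fitted on all 18703 genes kept by filterByExpr (minimum count 10), with TMM normalization. Genotype was tested by quasi-likelihood (robust), and p-values were adjusted by Benjamini and Hochberg's method over all of them, with a threshold of 0.05. A standard error was taken as the size of a log2 fold change over the root of its F statistic. CPM are TMM-normalized, and within-set differences are of log2 CPM with a prior count of 2. DESeq2 1.42.0, limma-voom (limma 3.58.1), other scalings and filters, the replicate number as a block, a sex-chromosome term and leaving out each library were the alternatives. The fit was tested on simulated counts.

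The genes, lists, motifs and the sex-chromosome term were chosen with earlier results of these data known. By the naming rule, full statistics went to genes whose groups did not overlap or whose unadjusted p was under 0.05, to the sensors and to Hspa5, Atf4, Ddit3 and Asns, and in each further list up to 3 genes with the smallest p could be named. Labels number replicates without naming animals. By their sex-chromosome transcripts, Lmln-KO replicate 3 and WT replicate 1 came from other animals than the rest of their groups. Whether every library is a separate animal is not stated, so p-values measure the spread between these libraries, which may be technical in part. Every pair of libraries differed beyond sampling noise (the lowest chi-square was 12.2 per degree of freedom). Sequences are from RefSeq.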

Additional observations from a re-analysis of the deposited data

How the results depend on the processing

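Each value was recomputed under 14 alternatives. None of the 38 genes was called under any of them. Over all tested genes edgeR called 0, against 24 with DESeq2, 3 with no filter on low counts, 1 with the replicate block, 1 with the sex-chromosome term and 0 to 3 when 1 library was left out (3 without WT replicate 1). The ER median of 0.30 ran from 0.014 (without Lmln-KO replicate 1) to 0.47 (without Lmln-KO replicate 3) when 1 library was left out. Signs changed in 3 of the 10 genes with full statistics, in 14 of 140 values. DESeq2 with the sex-chromosome term, which turned Asns negative, was not among the 14 alternatives and is not in that count. Atf6 was 0.0018 with RLE size factors, 0.0018 with DESeq2, 0.0092 with no filter, 0.0038 with the sex-chromosome term and -0.049 to 0.027 with 1 library left out. Ddit3 was -0.023 with upper-quartile scaling, -0.0090 with the sex-chromosome term and -0.085 to 0.11 with 1 library left out. Hspa5 ran from -0.030 to 0.44 in the same way. The cause was not tested.

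With the replicate number as a block 11 of the 37 genes (29.7%) had an unadjusted p under 0.05, against 2 (5.41%) without it. Over all tested genes the block gave 1209 (6.46%), against 871 (4.66%), and 0 of the 37 were called. Same-numbered libraries correlated at 0.46, -0.31 and 0.41 in their deviations from the group means. Lmln-KO and WT libraries with the same kind of sex-chromosome transcripts correlated at 0.41 to 0.49, and the remaining pairs at -0.68 to -0.25. Since the correlations followed that split, they cannot show whether the numbers pair the libraries. Genes under about 20 counts per library, such as Psat1 and Phgdh, are limited by depth.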
